A study of Mus musculus with 31 samples.

Results

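The effect of triiodothyronine (T3) on the liver of pups that can neither make thyroid hormone nor activate it by type 1 or type 2 deiodinase was measured by RNA sequencing. The comparison took the 6 livers labelled Dio1KO/Dio2KO/Pax8KO with T3 and the 5 livers of the same genotype with vehicle, 11 of the 31 livers in the series, chosen by their labels and matched to the count columns by animal number. Pups were C57Bl/6J mice at postnatal day 14 that had been injected every other day from postnatal day 2. Deletion of Dio1 and Dio2 was shared by every pup, controls included. The vehicle and T3 pups also lacked Pax8, without whose protein no thyroid follicles form. Side values come from the 5 control livers (Pax8Het, vehicle, so with 1 intact Pax8 copy) and the 8 Pax8KO livers given T4. The labels do not say whether pups of a group came from separate litters, so p-values measure the spread between these samples.

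Thyroid hormone acts through nuclear receptors that sit on DNA, mostly as partners of retinoid X receptors, and repress or activate nearby genes according to whether T3 is bound. T4 is largely a precursor, and type 1 and type 2 deiodinases convert it to T3, while type 3 deiodinase inactivates both. In liver the hormone is known for raising lipid synthesis and its NADPH supply, cholesterol turnover, mitochondrial shuttles and its own type 1 deiodinase.

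Library totals were 4901954 to 5625282 counts in the vehicle livers (5297107 ± 301534, SD, n = 5) and 5237993 to 6580814 after T3 (6070280 ± 481634, n = 6), a difference with an exact two-sided permutation p of 0.0216. By reads of Xist and 4 Y-linked genes, 2 of 5 vehicle and 5 of 6 T3 pups were female, and vehicle animal 67 and T3 animal 68 went against their labelled sex. Animals 54 to 85 included all 6 T3 but only 2 vehicle pups. Hepatocyte markers were high in every liver, with a summed level of 7840 to 8518 CPM (counts scaled to library size by TMM) in vehicle and 6093 to 7561 after T3, so the groups did not overlap. Muscle markers summed to 5.89 to 16.5 CPM in vehicle, but to 333.3 and 516.3 CPM in T3 animals 60 and 64. T3 animals 61 and 65, at 29.9 and 37.9 CPM, were also above every vehicle liver, while T3 animals 62 and 68, at 12.8 and 8.43 CPM, were not. Pancreatic acinar markers reached 144.9 and 296.7 CPM in vehicle animals 2019 and 37, against at most 22.1 CPM after T3. T3 animal 61 stood apart, with 109 genes at least 2-fold above and 355 at least 2-fold below all other T3 livers, against at most 23 and 37 genes for any other T3 liver. From the values, 1 seems to have been added to every deposited count, so a gene without reads still shows about 0.2 CPM. In bulk liver fewer cells of a type and less RNA per cell cannot be told apart.

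T3 raised 602 genes (3.53% of the 17057 tested) and lowered 553 (3.24%) at an adjusted p under 0.05 (edgeR quasi-likelihood test, Benjamini-Hochberg adjustment), and such genes are named called below. More rises than falls were large. Of the rises, 217 reached a log2 fold change of 1 and 87 reached 2, with a median of 0.71. Of the falls, 106 reached a log2 size of 1 and 26 reached 2, with a median of -0.41, while the median over all genes tested was 0.00. Pancreatic acinar genes were among the deepest falls, with 6 of 9 tested markers called lower, beside the 2 vehicle livers with high acinar levels. In 615 genes (3.61%) the libraries of the groups did not overlap. Scaling by library total alone moved the split to 801 higher and 408 lower, or 66.3% higher. The counts fell to 47 higher and 35 lower without the 12 of 31 fitted libraries that averaged at least 5 CPM over muscle or over acinar markers. Of these 12, 4 were among the 11 compared (vehicle animals 2019 and 37, T3 animals 60 and 64), while T3 animals 61 and 65 stayed in. The counts fell to 303 and 319 without vehicle animal 37, to 371 and 373 without animal 38, and to 354 and 323 without animal 55. Without T3 animal 60 they were 453 and 339.

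**Figure D1:**
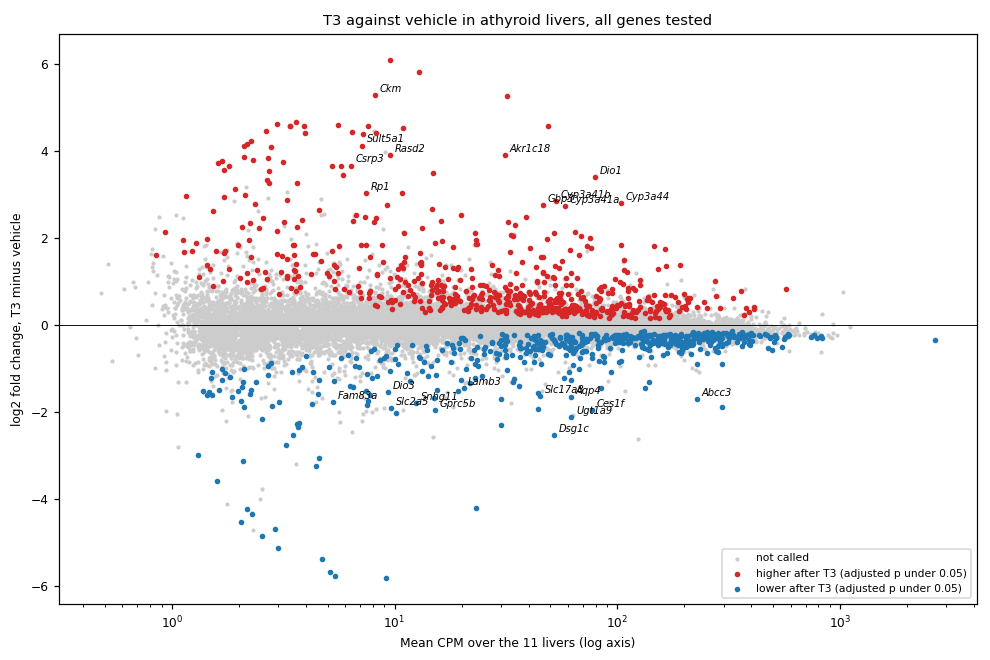
Log2 fold change of T3 against vehicle (vertical axis) by mean level over the 11 livers in CPM (horizontal log axis) for all 17057 genes tested, with called genes in colour and genes of the 12 largest rises and 12 largest falls that the text describes labelled. Of the 602 rises 217, and of the 553 falls 106, reach a log2 size of 1.

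The genes removed by design were looked at first. Pax8 (chromosome 2, 24420560 to 24475599, mm10) was close to the lowest level in both groups, at 0.736 to 3.39 CPM in vehicle and 0.774 to 3.18 CPM after T3. Dio2 (chromosome 12, 90724552 to 90738438), the activating deiodinase, was at 0.736 to 5.52 CPM and 2.01 to 4.23 CPM. Neither gene was called (log2 fold change 0.09 ± 0.43, SE, and -0.07 ± 0.38). Reads were still assigned to Dio1 (chromosome 4, 107291465 to 107307169), which makes an enzyme that both activates and clears hormone and is itself a classical T3 target. Which part of Dio1 is deleted is not given in the labels, so its level reports transcription of the locus rather than the enzyme. The vehicle livers held 14.1, 12.6, 9.9, 19.3 and 7.73 CPM of Dio1 (animals 2019, 37, 38, 55 and 67), and the T3 livers 60.2 at lowest, 124.2 at the median and 203.5 CPM at highest. The groups were far apart, with a rise of 3.41 ± 0.33 on the log2 scale (10.7-fold, adjusted p = 1.9e-07), and the rise was called in all 24 alternative analyses (log2 3.12 to 3.61). Among the animals that went against their labelled sex, Dio1 was at 7.73 CPM in vehicle animal 67 and at 203.5 CPM in T3 animal 68, the extremes of their groups on the side of their labelled treatment.

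Dio3 (chromosome 12, 110279068 to 110281097), the inactivating deiodinase, fell. It measured 17.4, 16.1, 18.2, 9.55 and 11.8 CPM in vehicle and 2.17 to 8.16 CPM after T3 (median 4.98), with no overlap (-1.55 ± 0.37, adjusted p = 0.0123). The use of strand in counting is not given in the sources used here, so reads of the Dio3 antisense transcript cannot be told apart from those of Dio3. Its call was lost in animals 54 to 85 and without the muscle and acinar libraries (adjusted p up to 0.327). Gene lists here and below were chosen with earlier results of these data known, so their shares are description only. Of 30 genes for hormone transport, deiodination and receptors, 3 (10%) rose and 5 (16.7%) fell, against 3.53% and 3.24% of all genes tested. The list median was -0.09. Slc16a10, a transporter of aromatic amino acids and thyroid hormone, rose by 1.38 ± 0.35 (adjusted p = 0.0158). Its vehicle levels were 87.4 to 124.4 CPM, and 5 T3 livers held 152.6 to 258.4 CPM while animal 61 held 711.5 CPM. Without animal 61 the call was lost. Slc7a5, a subunit of an amino acid exchanger that also carries hormone, rose by 0.69 ± 0.19 (adjusted p = 0.0283).

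The fallers of that list were Dio3, the organic anion transporters Slco1b2 (-0.25 ± 0.06) and Slco1a1 (-1.18 ± 0.34), Serpina7 (-0.89 ± 0.25), which encodes thyroxine-binding globulin, and Thra. Thra, the alpha receptor, fell slightly but cleanly, from 64.3, 73.1, 66.7, 73.2 and 69.4 CPM to 50 to 56.2 CPM (-0.37 ± 0.07, adjusted p = 0.00149). Thrb, the main receptor of hepatocytes, was not called (-0.21 ± 0.12, adjusted p = 0.328). It measured 141.6 to 154.1 CPM in vehicle and 108.7 to 130.2 CPM in 5 T3 livers, but 172.8 CPM in animal 68. The retinoid X receptors Rxra, Rxrb and Rxrg and the corepressor Ncor1 were not called either.

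**Figure D2:**
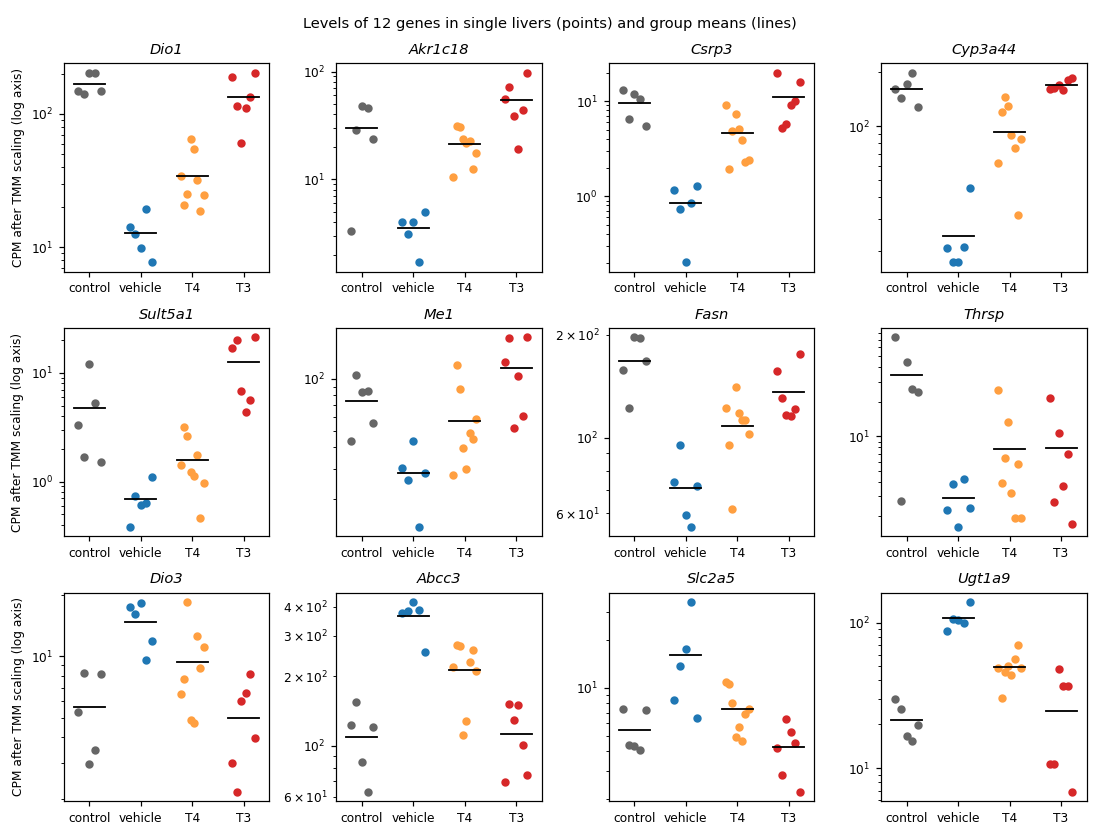
Level of 12 genes in single livers of 4 groups, in CPM after TMM scaling on log axes, with lines at group means. Dio1, Akr1c18, Csrp3, Cyp3a44 and Sult5a1 are higher in every T3 liver than in every vehicle liver, Dio3, Abcc3, Slc2a5 and Ugt1a9 are lower, and Thrsp overlaps between the groups.

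Of 16 known hormone-responsive genes, 6 (37.5%) rose and none fell, against 3.53% and 3.24% of all genes tested, with a list median of 0.66. This list too was chosen with earlier results of these data known. The risers were Dio1, Me1, Gpd2, Bcl3, Idh3a and Slc16a10. In animals 54 to 85 the list had 3 risers, and without the muscle and acinar libraries only Dio1 was still called. Me1 (chromosome 9, 86581371 to 86695953), cytosolic malic enzyme and a source of NADPH, held 30.3, 25.9, 43.6, 13.8 and 28.5 CPM in vehicle. After T3 it held 51.8 to 173.7 CPM (median 114.5), above every vehicle liver (2.01 ± 0.38, adjusted p = 0.00199). Gpd2, the mitochondrial glycerol phosphate dehydrogenase of an electron shuttle, measured 96, 45, 80.6, 36.7 and 190.2 CPM in vehicle and 136.9 to 313.6 CPM after T3. Only vehicle animal 67 reached into the T3 range (1.35 ± 0.31, adjusted p = 0.00917). Bcl3, a nuclear IkB protein, went from 13.1 to 22.3 CPM to 24.8 to 51.3 CPM (1.12 ± 0.22, adjusted p = 0.0022). Idh3a, a subunit of mitochondrial isocitrate dehydrogenase, rose by 0.73 ± 0.17 (adjusted p = 0.00833), with 184.5 CPM in T3 animal 61 against 75.4 to 115.8 CPM in the other T3 livers.

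The other 10 genes of this list were not called. Thrsp (chromosome 7, 97412938 to 97417730), the Spot 14 protein of lipogenesis that is a textbook T3 target, measured 2.29, 3.83, 1.62, 4.24 and 2.39 CPM in vehicle and 1.72 to 21.6 CPM after T3 (median 5.33). Its T3 livers spread across and above the vehicle range (1.46 ± 0.89, adjusted p = 0.352), and the 24 alternatives gave 0.83 to 1.93 with no call. Klf9, a zinc finger factor, had a log2 change of 0.54 ± 0.28 (adjusted p = 0.258), and Pdk4, which restrains pyruvate oxidation, 0.66 ± 0.35 (adjusted p = 0.282). Ucp2, an inner membrane carrier, had 0.40 ± 0.14 (adjusted p = 0.0715), and the corepressor Hr 0.51 ± 0.39. Cpt1a, the gate of mitochondrial fatty acid oxidation, stood at 506.9 to 692.6 CPM and 487 to 656.5 CPM (-0.01 ± 0.09, adjusted p = 0.96). Fgf21, a fasting hormone, had 0.67 ± 0.80, with 95.8 CPM in T3 animal 64 against 4.51 to 31.3 CPM in the others. Ppargc1a, a coactivator of mitochondrial genes, had 0.06 ± 0.35, with 393 CPM in T3 animal 61 against 64.6 to 129.3 CPM in the others.

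Lipid synthesis genes rose more often than they fell. Of 23 genes, 7 (30.4%) rose and 1 (4.35%) fell, against 3.53% and 3.24% of all genes tested. The list median was 0.21, and 1 gene rose without the muscle and acinar libraries. Fasn, fatty acid synthase, measured 74.2, 95, 59.2, 54.7 and 72 CPM in vehicle and 115.8 to 176.3 CPM after T3, with no overlap (0.94 ± 0.20, adjusted p = 0.00469), and was called in all 24 alternatives. Acaca, acetyl-CoA carboxylase 1, rose by 0.35 ± 0.08 and the desaturases Fads1 and Fads2 by 0.42 ± 0.09 and 0.33 ± 0.08. Mlxipl, which encodes the carbohydrate sensor ChREBP, rose by 0.41 ± 0.11 (adjusted p = 0.0227). Acacb, the mitochondrial carboxylase whose product inhibits Cpt1a and a gene chosen after its values were seen, had 5.09 to 20.8 CPM in vehicle (2.38 ± 0.57, adjusted p = 0.012). T3 animals 61 and 68 held 162.3 and 81.8 CPM of it and the other 4 held 11.2 to 18.3 CPM, so its call was lost without animal 61. Gpam, a glycerol phosphate acyltransferase, fell by 0.46 ± 0.14 (adjusted p = 0.0461). Scd1 (-0.81), Srebf1 (-0.30), Acly (-0.27) and Elovl6 (0.54) were not called. Of 9 pentose phosphate and NADPH genes only Me1 was called, and G6pdx had 0.41 (adjusted p = 0.0994).

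For cholesterol synthesis and uptake, 3 of 25 genes (12%) rose and none fell, against 3.53% and 3.24% of all genes tested. The list median was 0.30. Msmo1, a sterol methyl oxidase, measured 17.9, 29, 26.1, 28.4 and 31.9 CPM in vehicle and 33.6 to 133.4 CPM after T3 (1.23 ± 0.37, adjusted p = 0.0401). Hmgcs1, which makes HMG-CoA, rose by 0.63 ± 0.18 and Sc5d, a late desaturase, by 0.53 ± 0.12. Sqle (1.52) and Idi1 (1.25) were not called. None of the 3 calls held in animals 54 to 85 or without the muscle and acinar libraries. The Msmo1 call was lost in 15 of 24 alternatives, among them leaving out any single vehicle liver or T3 animal 60, 61 or 68. Hmgcs1 lost its call in 10 and Sc5d in 4 of 24. Msmo1 and Hmgcs1 both lost it with sex as a covariate. Of 18 bile acid and sterol export genes, Cyp27a1, which oxidises the sterol side chain, rose (0.70 ± 0.18, adjusted p = 0.0165; not called without T3 animal 61), and Nr5a2, a nuclear receptor of bile acid genes, fell (-0.45 ± 0.10, adjusted p = 0.00747). These single calls (5.56% each) were near the 3.53% and 3.24% of all genes tested. Cyp7a1, the rate-limiting enzyme of bile acid synthesis, had 1.03 (adjusted p = 0.0917).

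No mitochondrial fat oxidation gene was called higher. Of 22 mitochondrial oxidation and ketogenesis genes, none rose and 6 (27.3%) fell, against 3.24% of all genes tested. The list median was -0.16. Acadm, the medium-chain acyl-CoA dehydrogenase, measured 280.5, 280.9, 299.3, 311.5 and 275.8 CPM in vehicle and 206.2 to 262.7 CPM after T3, with no overlap (-0.36 ± 0.07, adjusted p = 0.00188). Acads, the short-chain enzyme, fell by 0.27 ± 0.06 and the thiolase Acaa2 by 0.26 ± 0.07. Hadha, of the trifunctional protein, fell by 0.23 ± 0.07 and the electron carrier dehydrogenase Etfdh by 0.17 ± 0.05. With library total as a covariate 2 genes of this list fell, and in animals 54 to 85 none did. Among 17 peroxisomal and omega oxidation genes, Abcd3, a peroxisomal fatty acid importer, rose from 235.7 to 266.5 CPM to 291 to 368.4 CPM (0.39 ± 0.06, adjusted p = 0.000505). Abcd3 was the only riser of this list and 1 gene fell, 5.88% each, near the 3.53% and 3.24% of all genes tested. The 28 respiratory chain genes had no call, with a median of -0.06. No cell cycle gene of 27 was called either, and 25 had a log2 change above 0 (median 0.26).

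**Figure D3:**
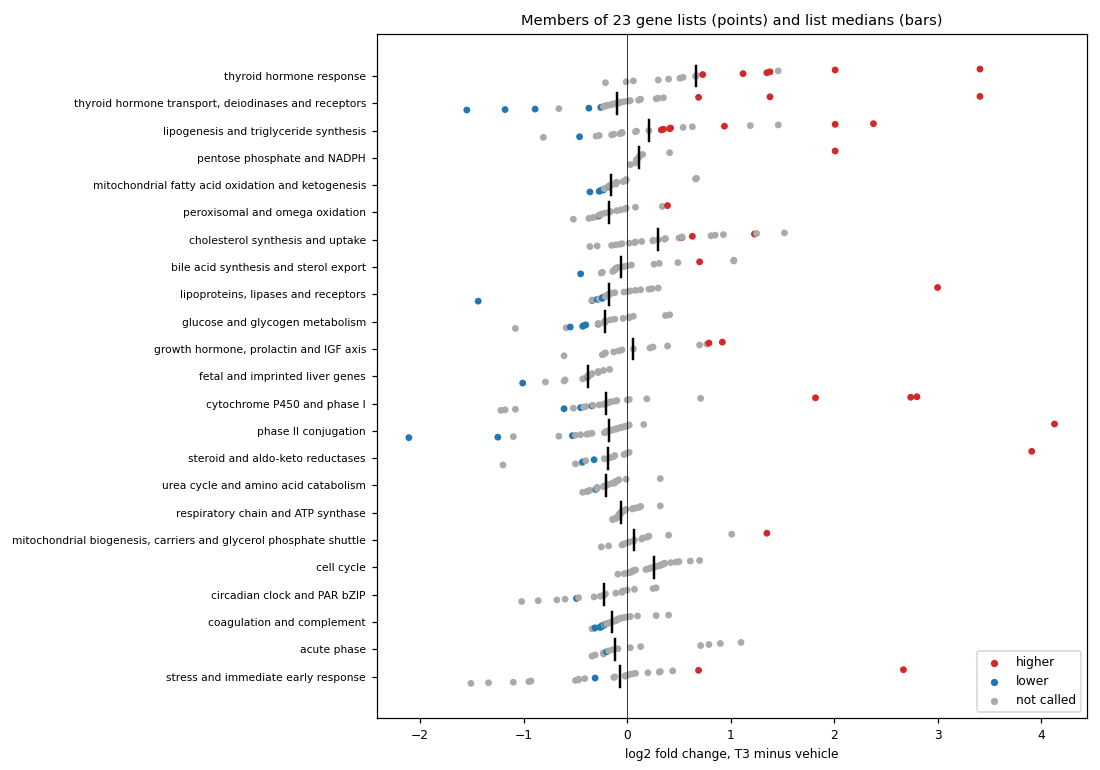
Log2 fold change of T3 against vehicle for every tested member of 23 gene lists (points) with list medians (black bars), coloured by call. Hormone-responsive genes lie to the right with a median of 0.66, while fetal genes lie to the left with a median of -0.38.

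The 12 largest rises and 12 largest falls described next were taken among called genes with a mean of at least 5 CPM and no overlap between the groups, clone and unnamed genes left out. Akr1c18 (chromosome 13, 4132615 to 4150654), a steroid dehydrogenase that inactivates progesterone, measured 4.01, 3.1, 4.04, 1.7 and 4.97 CPM in vehicle and 19 to 97.8 CPM after T3 (median 49.6). Every T3 liver was above every vehicle liver (3.91 ± 0.49, 15.1-fold, adjusted p = 1.11e-05). Of the 6 other Akr1c genes tested, a family looked at after its values were seen, Akr1c14 fell by 0.43 ± 0.09 and none rose. Over all genes tested 3.24% fell and 3.53% rose. Sult5a1 (chromosome 8, 123140192 to 123158315), a cytosolic sulfotransferase of little known substrate, measured 0.382, 0.73, 0.606, 0.637 and 1.1 CPM in vehicle and 4.36 to 21.3 CPM after T3 (4.13 ± 0.67, adjusted p = 0.000441). Animals 60, 61 and 68 held 17, 20.1 and 21.3 CPM of Sult5a1 and the others 4.36 to 6.77 CPM. Rasd2 (chromosome 8, 75213944 to 75224113), a Ras-like GTPase best known from striatum, also split the T3 livers, but with animal 60 among the lower ones. It measured 0.424 to 1.66 CPM in vehicle, 44.8 and 39.9 CPM in T3 animals 61 and 68, and 1.97 to 6.96 CPM in the other T3 livers (3.92 ± 0.70, adjusted p = 0.00103). Rp1, a microtubule protein of photoreceptors, was at 1.06 to 2.1 CPM in vehicle and at 25.8 and 25.1 CPM in T3 animals 60 and 68, against 2.32 to 10.7 CPM in the others (3.03 ± 0.62, adjusted p = 0.00356).

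Ckm and Csrp3 are known from striated muscle, and their patterns across livers differed. Ckm, the muscle creatine kinase, measured 0.191, 0.365, 0.202, 0.849 and 0.184 CPM in vehicle, 28.3 and 52.6 CPM in T3 animals 60 and 64, and 0.861 to 2.57 CPM in the other T3 livers (5.30 ± 1.48, adjusted p = 0.0281). Only 4 reads above the added 1 stood behind all 5 vehicle values, so the size of this fold is imprecise. Animals 60 and 64 are the livers with 333.3 and 516.3 CPM of muscle markers. Of these markers 7 of 9 tested, Ckm among them, were called higher, against 3.53% of all genes tested. The call of Ckm was lost in 11 of the 23 alternatives that tested it. Among them were leaving out the muscle and acinar libraries, T3 animal 60 or 64 alone, or any single vehicle liver. Csrp3 (chromosome 7, 48830398 to 48848033), a LIM protein of striated muscle, measured 1.15, 0.73, 0.202, 0.849 and 1.29 CPM in vehicle and 20, 5.18, 5.8, 9.19, 9.98 and 16 CPM in T3 animals 60, 61, 62, 64, 65 and 68. Animal 68 had the second highest Csrp3 level with 8.43 CPM of muscle markers, a value inside the vehicle range. The Csrp3 rise (3.67 ± 0.46, adjusted p = 1.11e-05) was called in all 24 alternatives, including the one without animals 60 and 64 (log2 3.34 to 4.01 over all).

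**Figure D4:**
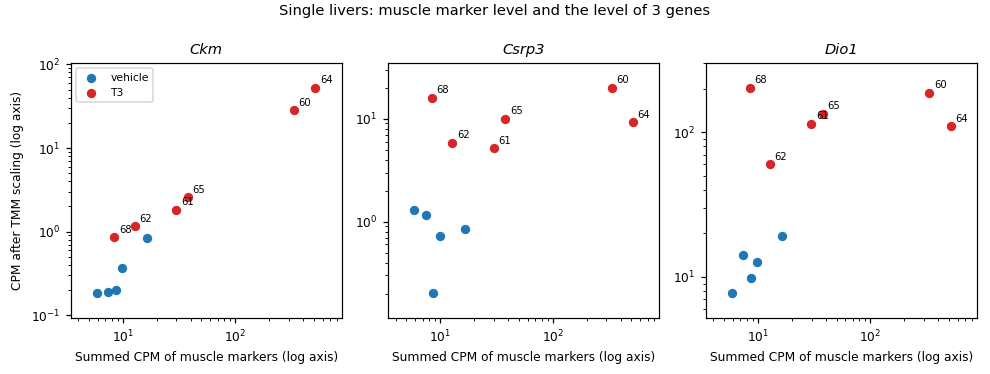
Level of 3 genes (vertical log axes, CPM) against the summed level of 15 muscle markers (horizontal log axes, CPM) in single vehicle and T3 livers, with T3 animal numbers. Ckm, itself 1 of the 15, is highest in animals 60 and 64, while Csrp3 and Dio1 are above the vehicle livers in every T3 animal.

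Guanylate-binding proteins, interferon-inducible GTPases described here as a family after their values were seen, rose in 4 of 9 cases and none fell. Over all genes tested 3.53% rose and 3.24% fell. Gbp3 measured 15.8, 9.12, 4.44, 16.5 and 9.94 CPM in vehicle and 31.7 to 49.9 CPM in 5 T3 livers, with 241.2 CPM in animal 61 (2.76 ± 0.56, adjusted p = 0.00332). Gbp2 was at 11.1 to 25.9 CPM in vehicle, 38.9 to 45.6 CPM in 5 T3 livers and 268.9 CPM in animal 61, and Gbp7 at 37.2 to 71.9, 99.6 to 123.6 and 343.8 CPM. The other 5 T3 livers were thus above the vehicle livers too. Without animal 61, Gbp3 was still called while Gbp2 and Gbp7 were not. Gbp11 rose from 4.85 ± 1.89 CPM (SD, n = 5) to 25.5 ± 6.58 CPM (n = 6; 2.40 ± 0.55, adjusted p = 0.00942). How reads shared by paralogs were counted is not given in the sources used here.

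The Cyp3a genes, too, were described as a family after their values were seen, and Cyp3a41a, Cyp3a41b and Cyp3a44 were among the largest rises. In the Cyp3a cluster on chromosome 5, 5 of 9 genes rose and 1 fell, against 3.53% and 3.24% of all genes tested. These cytochrome P450 genes encode oxidases of steroids, bile acids and drugs, and Cyp3a16, Cyp3a41a, Cyp3a41b and Cyp3a44 are close paralogs, so the authors' counting may have split reads among them. Their start regions are shown to let members that moved together be compared. The 250 bases before each RefSeq start (GRCm38.p6, 5′ to 3′, all on the minus strand) lie at chr5:145805875-145806124 for Cyp3a44, chr5:145720137-145720386 for Cyp3a41a, chr5:145584731-145584980 for Cyp3a41b and chr5:145469724-145469973 for Cyp3a16. Capitals in Cyp3a44 mark the 6-base parts of a direct repeat of AGGTCA found with 2 mismatches, and capitals in the others mark bases that differ from Cyp3a44 or have no aligned base there.
Cyp3a44: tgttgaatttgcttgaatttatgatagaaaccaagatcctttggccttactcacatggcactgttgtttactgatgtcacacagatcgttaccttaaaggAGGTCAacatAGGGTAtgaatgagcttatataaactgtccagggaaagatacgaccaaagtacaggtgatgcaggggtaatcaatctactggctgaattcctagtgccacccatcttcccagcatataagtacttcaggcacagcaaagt
Cyp3a41a: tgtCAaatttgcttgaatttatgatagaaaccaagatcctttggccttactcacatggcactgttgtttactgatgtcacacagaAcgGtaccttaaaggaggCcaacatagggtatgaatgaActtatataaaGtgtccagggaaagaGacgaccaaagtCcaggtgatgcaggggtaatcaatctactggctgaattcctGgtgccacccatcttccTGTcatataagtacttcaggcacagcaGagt
Cyp3a41b: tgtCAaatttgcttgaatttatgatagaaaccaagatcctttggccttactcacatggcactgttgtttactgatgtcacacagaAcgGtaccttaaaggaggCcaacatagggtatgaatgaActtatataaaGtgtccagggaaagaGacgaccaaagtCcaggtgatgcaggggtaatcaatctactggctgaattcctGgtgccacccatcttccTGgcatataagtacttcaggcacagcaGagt
Cyp3a16: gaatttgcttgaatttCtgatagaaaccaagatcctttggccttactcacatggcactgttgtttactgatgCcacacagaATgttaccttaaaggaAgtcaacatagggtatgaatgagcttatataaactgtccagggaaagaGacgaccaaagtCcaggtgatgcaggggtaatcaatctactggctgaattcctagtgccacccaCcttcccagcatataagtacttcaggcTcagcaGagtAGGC
The regions of Cyp3a41a and Cyp3a41b shared 99.6% of aligned bases, gaps left out, and had 94.4% and 94.8% in common with Cyp3a44. Cyp3a16 shared 95.9% with Cyp3a44, and Cyp3a11, whose region is not shown, 80.9%.

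Cyp3a44 was the most even responder of the cluster. It measured 20.8, 17.3, 17.4, 21 and 44.9 CPM in vehicle and 158.9, 166.4 and 187.3 CPM at the lowest, median and highest T3 liver (2.80 ± 0.30, adjusted p = 6.35e-07), and was called in all 24 alternatives. Cyp3a41a and Cyp3a41b measured 11.5 to 18.9 and 10.7 to 14 CPM in vehicle and 53.3 to 137.1 and 45.3 to 135.4 CPM after T3 (2.74 ± 0.49 and 2.85 ± 0.51). Cyp3a16 was at 44.7, 28.6, 31.5 and 23.6 CPM in 4 vehicle livers, at 178.6 CPM in vehicle animal 67, and at 194.1 to 249.4 CPM after T3 (1.82 ± 0.32, adjusted p = 0.000922). With DESeq2, in animals 54 to 85 and without the muscle and acinar libraries its call was lost (adjusted p up to 0.196). Vehicle animal 67 was also the highest vehicle liver for Cyp3a44, while its Dio1 level was the lowest. Cyp3a57 rose by 1.06 ± 0.31 and Cyp3a11 fell by 0.34 ± 0.09 (adjusted p = 0.0228), a call lost in 12 of 24 alternatives, among them sex as a covariate and leaving out T3 animals 60, 65 or 68 or vehicle animals 37, 38 or 55. Cyp3a13, Cyp3a25 and Cyp3a59 were not called.

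Most other drug and steroid metabolism genes were not called. Of 26 phase I genes, 3 (11.5%) rose, all of them Cyp3a, and 3 (11.5%) fell, against 3.53% and 3.24% of all genes tested. None of the 26 fell with sex or library total as a covariate. Of 29 conjugation genes, only Sult5a1 rose (3.45%) and 3 (10.3%) fell. Ugt1a9 (chromosome 1, 88070800 to 88218997), a glucuronosyltransferase of phenols and hormones, measured 87.4, 105.1, 103.6, 99.9 and 138.5 CPM in vehicle and 6.89 to 47.6 CPM after T3 (median 23.7). The groups were separate (-2.11 ± 0.34, adjusted p = 0.000397), and the T3 livers fell into 6.89 to 10.7 CPM (animals 60, 61 and 68) and 36.6 to 47.6 CPM (animals 62, 64 and 65). Ugt1a transcripts share their last exons, and the 5 other members tested were not called (Ugt1a1 -0.07 ± 0.07). Gstm6 and Gstp1, glutathione transferases, fell by 1.25 ± 0.30 and 0.53 ± 0.14.

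The Cyp2c and carboxylesterase families were described after their values were seen. Of 13 Cyp2c genes tested 5 fell and none rose, with a median of -0.49, and of 13 carboxylesterases 5 fell and none rose, with a median of -0.29. Over all genes tested 3.24% fell and 3.53% rose. Cyp2c67, a cytochrome P450, measured 214.7, 192.2, 240.1, 133.9 and 232 CPM in vehicle and 56.8 to 93.6 CPM after T3 (-1.44 ± 0.17, adjusted p = 6.66e-06), and was called in all 24 alternatives. Cyp2c38 went from 3.13 to 16.6 CPM to 0.151 to 1.84 CPM (-3.24 ± 0.54, adjusted p = 0.000603). Ces1f (chromosome 8, 93256236 to 93279747), a lipid and drug ester hydrolase, measured 111.5, 138.2, 140.6, 185.2 and 69.4 CPM in vehicle and 13 to 63.3 CPM after T3 (-1.96 ± 0.44, adjusted p = 0.00747). Its neighbour in sequence Ces1e fell by 1.07 ± 0.23. In both of these genes vehicle animal 67 was the lowest vehicle liver.

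Abcc3 (chromosome 11, 94343295 to 94392997), a basolateral exporter of conjugates, measured 377.9, 382.3, 419.7, 386.8 and 253.9 CPM in vehicle and 69.2 to 150.9 CPM after T3 (-1.70 ± 0.25, adjusted p = 0.000105). It was called in all 24 alternatives. Its relative Abcc4 rose by 1.28 ± 0.35 (adjusted p = 0.0268), a call lost in 10 of 24 alternatives, among them leaving out T3 animals 61 or 68 or vehicle animals 37 or 55. Abcc4 was at 74.2 and 39.6 CPM in T3 animals 61 and 68 against 13 to 20.3 CPM in the others. Slc2a5 (chromosome 4, 150119283 to 150144169), the fructose transporter, measured 8.4, 13.7, 17.6, 34.4 and 6.44 CPM in vehicle and 2.24 to 6.38 CPM after T3 (-1.91 ± 0.34, adjusted p = 0.00106). The gap between the highest T3 liver (6.38 CPM) and the lowest vehicle liver (6.44 CPM) was narrow. Dsg1c, a desmosomal cadherin, had the largest fall by this rule, from 58.4, 135.1, 111.7, 109.9 and 60.4 CPM to 9.84 to 26.5 CPM (-2.53 ± 0.41, adjusted p = 0.000397).

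The remaining falls of this size ranged from -1.44 to -1.95. Gprc5b, an orphan receptor, fell by 1.95 ± 0.30 and Slc17a8, a vesicular glutamate transporter, by 1.63 ± 0.33. Aqp4, a water channel, fell by 1.65 ± 0.39, and Lamb3, a laminin chain, by 1.44 ± 0.33. The noncoding host gene Snhg11 fell by 1.80 ± 0.33 and Fam83a by 1.78 ± 0.37. Vldlr, the VLDL receptor, went from 122.9, 114.9, 101.6, 198.4 and 109.5 CPM to 17.6 to 86.3 CPM (-1.44 ± 0.36, adjusted p = 0.0158). Vehicle animal 55 was the highest vehicle liver for Lamb3 (68.5 CPM against 19.3 to 26 CPM) and Vldlr, and both calls were lost without it. Meg3, an imprinted noncoding RNA of fetal liver, fell by 1.01 ± 0.28 and H19, another, by 0.38 ± 0.11. They were the 2 called (14.3%, against 3.24% of all genes) of 14 fetal and imprinted genes, none of which had a log2 change above 0 (median -0.38). The calls of Meg3 and H19 were lost in 11 and 13 of 24 alternatives, both of them in animals 54 to 85 and without T3 animal 61 or 68 or vehicle animal 37 or 55.

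Stat5a, which carries the growth hormone and prolactin signal, rose from 31.1 to 40.3 CPM to 49 to 98.1 CPM (0.92 ± 0.14, adjusted p = 0.000182), and Prlr, the prolactin receptor, rose by 0.79 ± 0.22 (adjusted p = 0.0251). The Prlr call was lost in 8 of 24 alternatives, among them leaving out T3 animals 60 or 65 or vehicle animals 38 or 67. Stat5a and Prlr were the only calls among 15 genes of the growth hormone, prolactin and IGF axis (13.3% higher, against 3.53% of all genes tested). Ghr (-0.22) and Igf1 (0.25) were not called. Of 20 glucose and glycogen genes none rose and 5 (25%) fell, against 3.24% of all genes tested, but 1 fell in animals 54 to 85 and none without the muscle and acinar libraries. Slc2a2, the hepatocyte glucose transporter, fell by 0.42 ± 0.09, Gckr, which binds glucokinase, by 0.43 ± 0.09, Ugp2 and Gys2, of glycogen synthesis, by 0.40 ± 0.08 and 0.55 ± 0.15, and Pcx, pyruvate carboxylase, by 0.28 ± 0.06. Of 25 lipoprotein, lipase and receptor genes 6 (24%) fell and 1 rose, but 1 fell with library total as a covariate and none in animals 54 to 85 or without the muscle and acinar libraries. Apob, the core of VLDL, went from 2823 to 3105 CPM to 2023 to 2613 CPM (-0.34 ± 0.08, adjusted p = 0.0072). The riser was Lipg, endothelial lipase, chosen after its values were seen, from 0.182 to 1.06 CPM to 1.45 to 5.67 CPM (3.0 ± 0.78, adjusted p = 0.0191; not called without vehicle animal 37).

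Of 31 coagulation and complement genes none rose and 8 (25.8%) fell, against 3.24% of all genes tested. The list median was -0.15. F5, a clotting cofactor, fell by 0.31 ± 0.07, and Hc, Cfi and Masp2, of the complement system, by 0.24 ± 0.05, 0.26 ± 0.06 and 0.26 ± 0.06. Albumin (Alb), picked with its values in view, fell by 0.28 ± 0.08 (adjusted p = 0.0276), a call lost in 13 of 24 alternatives. Several values moved with these small falls. The summed hepatocyte markers were lower in every T3 liver than in every vehicle liver. By the values, counts in this table level off near 2 per exonic base, and among 628 tested genes with over 0.5 counts per base, 76 fell and 5 rose (median -0.12). After a correction for that ceiling 63 fell and 6 rose (median -0.10). With library total as a covariate 1 of the 31 coagulation and complement genes fell, and in animals 54 to 85 none did. The part of these values in the small falls was not tested. Other lists had single falls, with shares (4.35%, 7.14% and 5.26%) near the 3.24% of all genes called lower. In them 1 gene of 23 for urea and amino acids (Slc25a13, -0.30 ± 0.06), 1 of 14 for the acute phase (Itih3, -0.20 ± 0.05) and 1 of 19 for the clock (Tef, -0.49 ± 0.11) fell. Of 24 stress and immediate early genes, 2 (8.33%) rose and 1 (4.17%) fell, against 3.53% and 3.24% of all genes tested. Chac1, a glutathione-degrading enzyme of the stress response, rose (2.67 ± 0.60, adjusted p = 0.00756) and so did Hsph1, a heat shock protein (0.69 ± 0.18), while Herpud1, of the endoplasmic reticulum, fell by 0.31 ± 0.08. Chac1 overlapped between the groups, at 1.46 to 6.49 CPM in vehicle and 5.75 to 60.7 CPM after T3. Neither rise was called with library total as a covariate, in animals 54 to 85 or without the muscle and acinar libraries. Hsph1 and Herpud1 lost their calls in 8 and 9 of 24 alternatives.

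In all 24 alternative analyses, 28 genes were called higher and 13 lower. Besides those described, risers with a log2 change above 1 that were chosen from this group after their values were seen were Sned1, a matrix protein (2.31 ± 0.26), Trim7, a ubiquitin ligase (1.94 ± 0.25), and Tlcd2 (1.85 ± 0.18). Rhbg, an ammonia channel, had 1.56 ± 0.27, Slc25a45, a mitochondrial carrier, 1.45 ± 0.20, Nt5e, which makes adenosine, 1.30 ± 0.11, and Abhd6, a lipid hydrolase, 1.19 ± 0.13. Esr1, the oestrogen receptor alpha, went from 56.5 to 96.2 CPM to 144.4 to 203.3 CPM (1.04 ± 0.13, adjusted p = 1.17e-05). Fallers included Acad10, an acyl-CoA dehydrogenase relative (-0.85 ± 0.13), Casp6, a caspase (-0.59 ± 0.10), and Slc22a15, a solute carrier (-0.89 ± 0.13). The clone gene 9030619P08Rik had the largest such rise (4.59 ± 0.29).

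**Figure D5:**
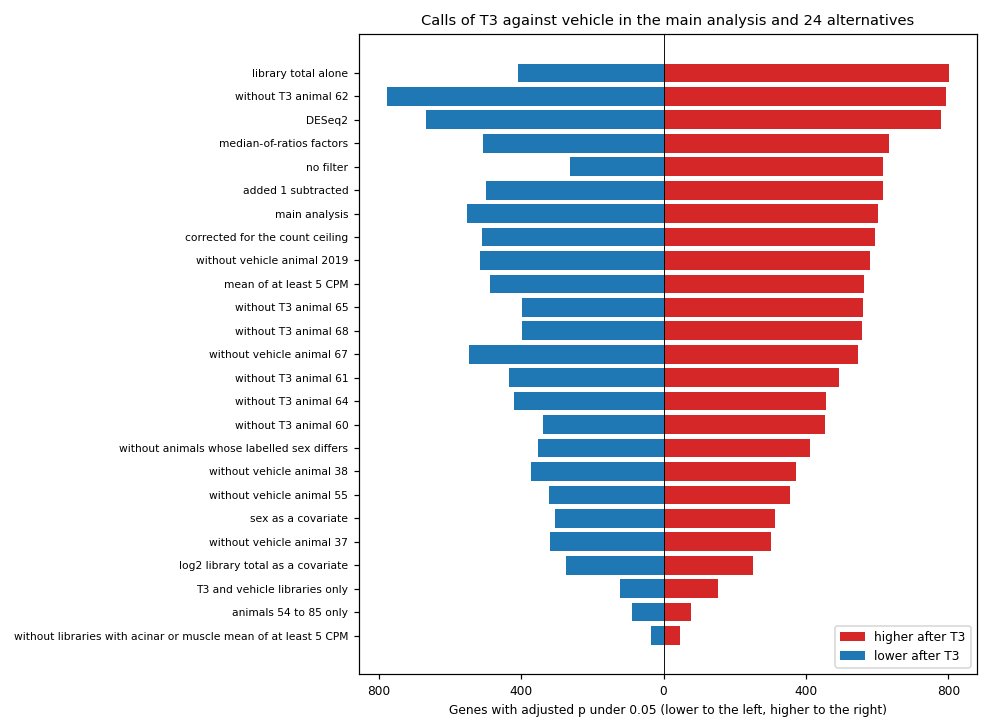
Number of genes called higher (right) and lower (left) after T3 in the main analysis and each of 24 alternatives. The main analysis called 602 and 553, and the analysis without libraries averaging at least 5 CPM over muscle or over acinar markers 47 and 35.

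T3 livers were also set beside control and T4 livers, comparisons that use the same T3 livers. By reads, 5 T3 pups were female and 1 male, against 2 and 6 T4 pups and 4 and 1 controls. Mean library totals were 6070280 counts after T3, 5343109 after T4 and 5413170 in control. The alternatives were run for T3 against vehicle only, so the part of sex or library total in these differences was not tested. Only 36 genes (0.211%) were called between T3 and control, and 94 (0.551%) between T3 and T4. Dio1 had a log2 difference of -0.32 from control (adjusted p = 0.571) and of 1.97 ± 0.25 from T4 (adjusted p = 0.000241). For Akr1c18 the differences were 0.87 (adjusted p = 0.243) and 1.35 (adjusted p = 0.0613), for Csrp3 0.22 and 1.26 (adjusted p = 0.774 and 0.0596), and for Cyp3a44 0.08 and 0.87 (adjusted p = 0.904 and 0.074). Sult5a1 was higher after T3 than after T4 (2.94, adjusted p = 0.00303), as were Rp1 (2.22, adjusted p = 0.0267), Slc16a10 (1.49, adjusted p = 0.0142) and Cyp27a1 (0.71, adjusted p = 0.0281). Cyp2c67 (-0.97, adjusted p = 0.00263), Fam83a (-1.84, adjusted p = 0.00842) and Pcx (-0.30, adjusted p = 0.012) were lower after T3 than after T4. Rasd2 was higher after T3 than in control (3.16, adjusted p = 0.0257) and after T4 (3.77, adjusted p = 0.00241). As given above, T3 animals 61 and 68 held far more Rasd2 than the other T3 livers. Animal 61 likewise held the most Slc16a10, animals 60 and 68 the most Rp1, and animals 60, 61 and 68 the most Sult5a1. Slc16a10 and Cyp27a1 lost their calls against vehicle without T3 animal 61. The comparisons with control and T4 were not repeated without single livers. A p above the threshold does not show that T3 and control livers were alike: Thrsp, at 2.71 to 73.4 CPM in control, had -2.10 (adjusted p = 0.134).

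Promoters of the 24 largest rises and falls and the hormone-responsive genes were searched for the receptor hexamer AGGTCA and for its direct repeat with 4 bases of any kind between the copies, on both strands. RefSeq entries (GRCm38.p6, 250 bases before to 50 after the start) matched 29 of the 39 genes, and those without an entry included Abcc3, Aqp4, Ces1f, Dsg1c, Fam83a, Hr, Idh3a and Rp1. The hexamer was in 5 genes (17.2%), Akr1c18, Cpt1a, Cyp3a44, Thrb and Ugt1a9, against 18.1% of all genes in the table. The repeat was in none exactly or with 1 mismatch, against 0.0148% and 0.278% of all genes. With up to 2 mismatches it was in 1 gene (3.45%), Cyp3a44, starting 150 bases before the start, against 3.47% of all genes. The 250 bases of Cyp3a16, Cyp3a41a and Cyp3a41b printed above did not hold it, and those of Cyp3a11 did. These windows cover only the start regions, and a match is a description of letters.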

How the data were processed

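Liver RNA libraries (stranded mRNA kit) of 31 pups, 11 of them compared here, were deposited as 1 table of counts by the authors, over 43629 genes, of which 97.3% have IDs in GENCODE M21. Per the submitters' processing notes, bcl2fastq, Trimmomatic, BWA 0.7.10 and DESeq were used; the notes list GRCh38 while the column names say mm10. The counter and its use of strand are not given in the sources used here. By the values alone, the deposited counts seem to hold 1 added to each value (none is lower and 50.1% are 1) and level off near 2 per exonic base.

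Columns were mapped by animal number. Counts were tested with edgeR 4.0.16 (R 4.3.3; TMM scaling, filterByExpr, 1 mean per group over all 31 libraries, quasi-likelihood test, Benjamini-Hochberg adjustment over 17057 genes, threshold 0.05). Named genes were the targeted genes, the 12 largest rises and falls with a mean of at least 5 CPM and no overlap, and up to 4 called members per list (all of the hormone-responsive list); others are stated as chosen after their values were seen. Members and lists were chosen with earlier results of these data known. The 24 alternatives, run for T3 against vehicle only, covered tools (DESeq2 1.42.0), scaling, filters, covariates and left-out libraries. T3+T4 livers entered the fit only. Some genes counted in the lists are not reported here by name.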

Additional observations from a re-analysis of the deposited data

Results flagged for a closer look

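Single livers stood far from the rest of their group (Dixon's test at the 95% level) in 19 of 198 groups of 5 or 6 values over the named genes, or 9.6%. The test's nominal rate is about 5%. The groups share livers and genes, so the cases are not independent. Many of these genes were named for large changes in the same livers or after their values were seen. The nominal rate is therefore not a matched reference.

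T3 animal 61 was the far liver for 7 genes. It was the highest T3 liver for Gbp2 (268.9 CPM against 38.9 to 45.6), Gbp3 (241.2 against 31.7 to 49.9) and Gbp7 (343.8 against 99.6 to 123.6). The same held for Slc16a10 (711.5 against 152.6 to 258.4), Ppargc1a (393.0 against 64.6 to 129.3) and Idh3a (184.5 against 75.4 to 115.8). It was the lowest for Lamb3 (4.18 against 11 to 14.5). T3 animal 62 was the highest for Alb (624.8 against 466.7 to 516.1) and Hsd11b1 (252.4 against 202.7 to 219.1). T3 animal 68 was the highest for Slc16a11 (36 against 12.4 to 20.9) and Thrb (172.8 against 108.7 to 130.2), and T3 animal 64 for Fgf21 (95.8 against 4.51 to 31.3).

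Vehicle animal 67 was the highest vehicle liver for Cyp3a16 (178.6 CPM against 23.6 to 44.7), Cyp3a44 (44.9 against 17.3 to 21) and Acacb (20.8 against 5.09 to 9.09), and the lowest for Abcc3 (253.9 against 377.9 to 419.7). In these 4 genes it lay toward the T3 livers, while its Dio1 level was the lowest of all 11 livers. Vehicle animal 55 was the highest for Lamb3 (68.5 against 19.3 to 26), Vldlr (198.4 against 101.6 to 122.9) and Ckm (0.849 against 0.184 to 0.365).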

How the results depend on the processing

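No alternative reversed the direction of a named gene that was called. The main 602 higher and 553 lower genes became 152 and 123 with T3 and vehicle libraries alone in the fit, 78 and 89 in animals 54 to 85, 250 and 274 with log2 library total as a covariate and 312 and 306 with sex as a covariate. They became 410 and 353 without animals whose labelled sex differed from their reads, 617 and 263 with no filter, and 47 and 35 when libraries averaging 5 CPM or more over acinar or over muscle markers were dropped (12 of the 31 fitted), which left 4 T3 and 3 vehicle livers. Of those 47 and 35, 45 and 34 were also called in the main analysis. Leaving out 1 library at a time gave 303 to 793 higher and 319 to 777 lower genes, lowest without vehicle animal 37 and highest without T3 animal 62. Of 87 named genes that were called, 30 lost the call when some single library was left out, and 11 kept it in all 24 alternatives. Library total alone as scaling gave 801 and 408, and DESeq2 779 and 668. The cause was not tested where fewer libraries or genes do not account for it. No paired analysis was possible because the groups share no animal numbers. With 4901954 to 6580814 counts a library, genes near 1 CPM rest on a few reads.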

Other observations

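T3 animal 61 differed from the other T3 livers in genes outside the groups described above, listed here as values chosen after they were seen. Sult1e1, the oestrogen sulfotransferase, was at 96.8 CPM against 0.746 to 8.7 CPM in the other T3 livers and 0.212 to 1.82 CPM in vehicle. Cyp17a1, a steroid hydroxylase, was at 245.2 CPM against 6.86 to 49.4 CPM, and Hamp, hepcidin, at 54 CPM against 0.907 to 11.2 CPM. Some genes were far lower in this liver. Ccnb1, a mitotic cyclin, was at 1 CPM against 6.54 to 26.8 CPM in the other T3 livers, and Dtl, of the replication licensing pathway, at 1 CPM against 13.4 to 31.4 CPM. Among the 602 rises this liver was the highest T3 liver in 239, and among the 553 falls the lowest in 256, while T3 animal 62 was the lowest in 217 rises and the highest in 264 falls. Animal 62 was the only male T3 liver by reads and also had the lowest library total of the T3 livers (5237993 counts). The part of either in its levels was not tested.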
